A study of Homo sapiens with 18 samples.

Results

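Levels of the messenger RNAs of 10 genes of the AP-1 family of transcription factors were described in the human B-cell line GM12878: the FOS group (FOS, FOSB, FOSL1 and FOSL2), the JUN group (JUN, JUNB and JUND), BATF and BATF3, and ATF3. They were taken by gene symbol from a deposited table of 17155 genes. All 10 were in it, 1 row each, and all 10 had a mean of at least 10 normalised reads over the 18 libraries, the minimum for testing. GM12878 is a lymphoblastoid cell line, that is, B cells immortalised by Epstein-Barr virus. The 18 polyadenylated RNA-seq libraries form 6 groups of 3: a control carrying a non-targeting guide (pxpr), and stable CRISPR knockouts of 5 NF-κB subunits, namely RelA (encoded by RELA), cRel (REL), RelB (RELB), p50 (NFKB1) and p52 (NFKB2). Each knockout is compared with the same 3 controls. All 18 carry the genotype label "Wildtype LMP1", so no group differs in this label. Guides were brought in by lentivirus, transduced cells were selected with puromycin and loss of each subunit was checked by immunoblot, per the labels' protocols. The labels do not say whether a knockout was a clone or a population, or how many guides were used for each gene.

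AP-1 factors bind DNA as pairs joined through a leucine zipper next to a basic region that touches the DNA. FOS proteins cannot pair with themselves and need a JUN partner, whereas JUN proteins can also pair with one another. BATF and BATF3 have no activation domain of their own, pair with JUN proteins and, in B and T cells, bind composite elements together with the interferon regulatory factors IRF4 and IRF8. ATF3 is a stress-induced member that joins JUN proteins at sites close to the cyclic AMP response element (CRE). In B cells carrying Epstein-Barr virus, the viral membrane protein LMP1 acts as a constitutive receptor that feeds both NF-κB and the JNK and p38 kinase cascades upstream of AP-1.

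Values are read counts divided by each library's size factor (normalised counts). Libraries held between 15179664 and 37473129 reads assigned to genes, and all 6 B-cell markers examined were present in every group. Monocyte markers CD14 and CD68 and the T-cell marker CD3D stayed at or below 3.16 normalised reads, whereas CD3E ran from 12.4 to 26.8 and CD2 reached 15.3. Several marker sums moved without overlap with the control. The monocyte list (6 of 7 genes in the table, mostly CSF1R) summed to 388 to 422 in the control, 627 to 704 in p50-knockout, 597 to 696 in p52-knockout and 738 to 777 in RelB-labelled cells. The T and NK list (5 of 8, mostly NKG7) summed to 400.2 to 545 in the control, 320.3 to 354 in cRel-labelled and 660.5 to 743 in RelB-labelled cells. The fibroblast and epithelial list (5 of 6, mostly COL1A1) was 1167 to 1363 in the control and 746 to 1038 in p50-knockout cells. For the plasma-cell list (4 of 5, mostly IRF4) the sums were 25060.0 to 27750.0 in the control, 24260.0 to 24590.0 in cRel-labelled and 29660.0 to 30910.0 in RelA-knockout cells. B-cell markers summed to 42480.0 to 43610.0 in the control and 46510.0 to 49470.0 in cRel-labelled cells. The part of these sums in the AP-1 results was not tested. The targeted transcript was lower in 3 of the 5 knockouts: NFKB1 fell from 7066 ± 305 (SD, n = 3) in the control to 4685 ± 56.4 in p50-knockout cells, NFKB2 from 8566 ± 138 to 6320.1 ± 172 in p52-knockout cells and RELA from 2208 ± 31.6 to 1368 ± 35.4 in RelA-knockout cells. The falls in RelA-knockout cells were not confined to RELA. There 4 of the 5 subunit genes were called lower, with NFKB1 at 5138 ± 288, NFKB2 at 6671 ± 226 and RELB at 1887 ± 127. By contrast, RELB rose, from 3319 ± 158 to 4107 ± 170.3, in the libraries labelled RelB knockout. REL stood at 1554, 1717 and 856 in the controls and at 1298 ± 16.6 in the libraries labelled cRel knockout, which lay below controls 1 and 2 and above control 3, and was not called. RNA levels do not measure the protein, whose loss was checked by immunoblot per the labels. They therefore do not settle whether either subunit was lost. These groups are called RelB-labelled and cRel-labelled throughout, after their labels. Within the control group, the third library was the highest of the 3 for the 6 members with the shortest exon length (BATF, JUNB, JUND, FOSL1, BATF3 and FOS) and for none of the other 4. Over all tested genes, its deviations from the mean of the 3 controls ran against transcript length (rank correlation -0.452, across genes). Controls 1 and 2 gave 0.242 and 0.364.

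**Figure D1:**
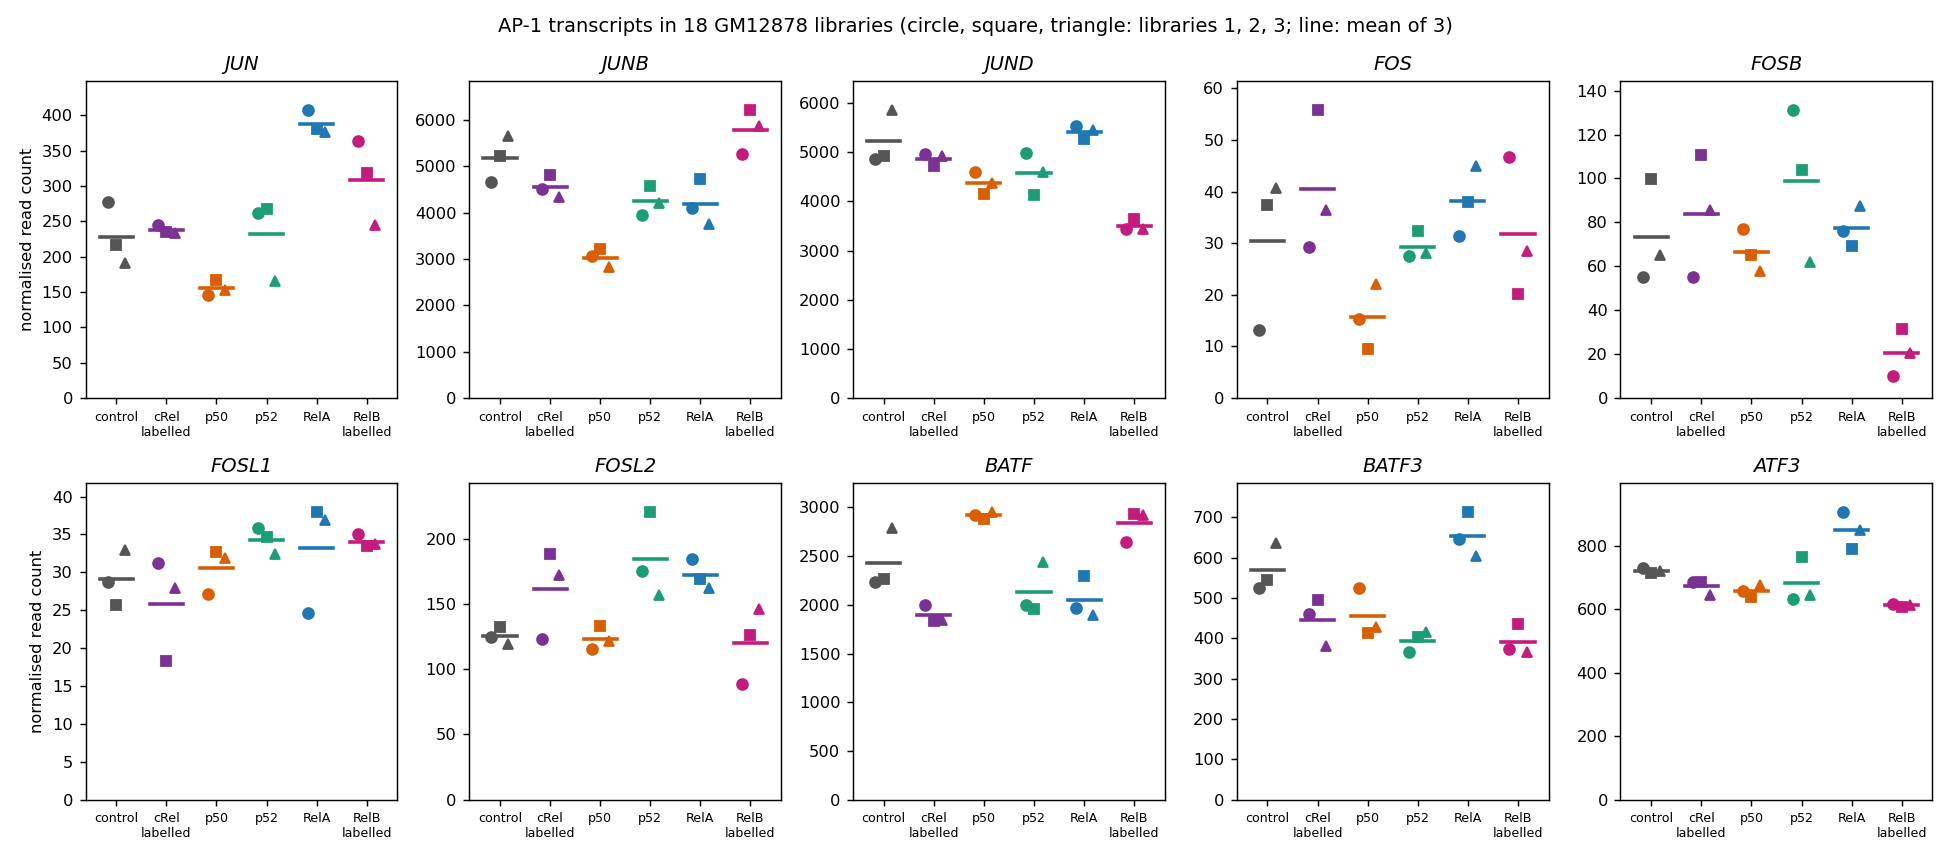
Normalised read count of each of the 10 AP-1 genes in every library, one panel per gene with its own linear axis from 0; circles, squares and triangles are libraries 1, 2 and 3 of a group, and lines are means of 3. JUNB, JUND and BATF lie between 1832 and 6214 in all 18 libraries, while FOS and FOSL1 lie below 56.

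Per kilobase of exon, which allows genes to be set side by side, the AP-1 messenger RNA of the control libraries was made up mostly of JUNB (2845 ± 269 normalised reads per kb; mean ± SD, n = 3), JUND (2801 ± 299) and BATF (2482 ± 319), whose ranges overlapped from one to the next. BATF3 followed at 209.6 ± 22.2, ATF3 at 178 ± 1.79 and JUN at 64.5 ± 12.6, each clear of its neighbours. The FOS group closed the order, with FOSL2 at 17.5 ± 0.881, FOSL1 at 15.4 ± 1.95, FOSB at 13.2 ± 4.19 and FOS at 9.41 ± 4.64, again with overlapping neighbours. The 4 FOS-group genes together made up 0.644 ± 0.0827% of the summed per-kb level of the 10 genes. The length used was that of all annotated exons of a gene merged, not of the transcript expressed. The annotation used for counting is not given, so order and shares per kb hold only for these lengths. FOS rested on 9 to 63 reads a library and FOSL1 on 20 to 51, so counting error alone gives them a coefficient of variation of 19.97% and 18.2%. The observed spread within groups was 35.2% for FOS and 15.6% for FOSL1. JUNB, JUND and BATF, with at least 1643 reads in every library, varied by 8.397%, 6.41% and 9.103% within groups, well above their counting error of 1.53%, 1.497% and 2.104%.

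JUN and BATF each rose in some knockouts and fell in another, while JUNB, JUND and BATF3 were called only as lower than the control. Against the control, and at an adjusted p under 0.05 in limma over 12381 genes, 1 of the 10 genes was called in cRel-labelled cells (BATF, lower). There, 6.09% of all tested genes were called, 4.17% higher and 1.92% lower. In p50-knockout cells 5 were called, 1 higher and 4 lower, against 36.7% of all genes (17% higher and 19.6% lower). The p52 knockout gave 4, 1 higher and 3 lower, against 50.8% (24.5% higher and 26.4% lower). RelA knockout gave 2, JUN higher and JUNB lower, against 5.55% (2.92% higher and 2.63% lower). The RelB-labelled libraries gave 6, 2 higher and 4 lower, against 67.8% (33.1% higher and 34.7% lower). Read against this background, the number of AP-1 genes called is not a result about the family, and the results lie in the single genes and their directions. Median log2 differences of the 10 genes were -0.10 for cRel-labelled, -0.19 for p50, -0.04 for p52, 0.19 for RelA and 0.02 for RelB-labelled, beside medians over all tested genes between -0.02 and 0.00. Of the 18 calls, 7 were also made in each of up to 29 other settings in which the gene was tested (other scalings, tests, filters and left-out libraries): JUNB in p50-knockout cells, BATF3 in p52-knockout cells, JUN in RelA-knockout cells, and FOSB, JUND, BATF3 and ATF3 in RelB-labelled cells. In RNA from whole cultures, fewer cells expressing a gene and less RNA per cell cannot be told apart. The labels call the replicates biological but do not say that they were separate cultures, so the p-values measure the spread between these libraries, which may be technical.

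**Figure D2:**
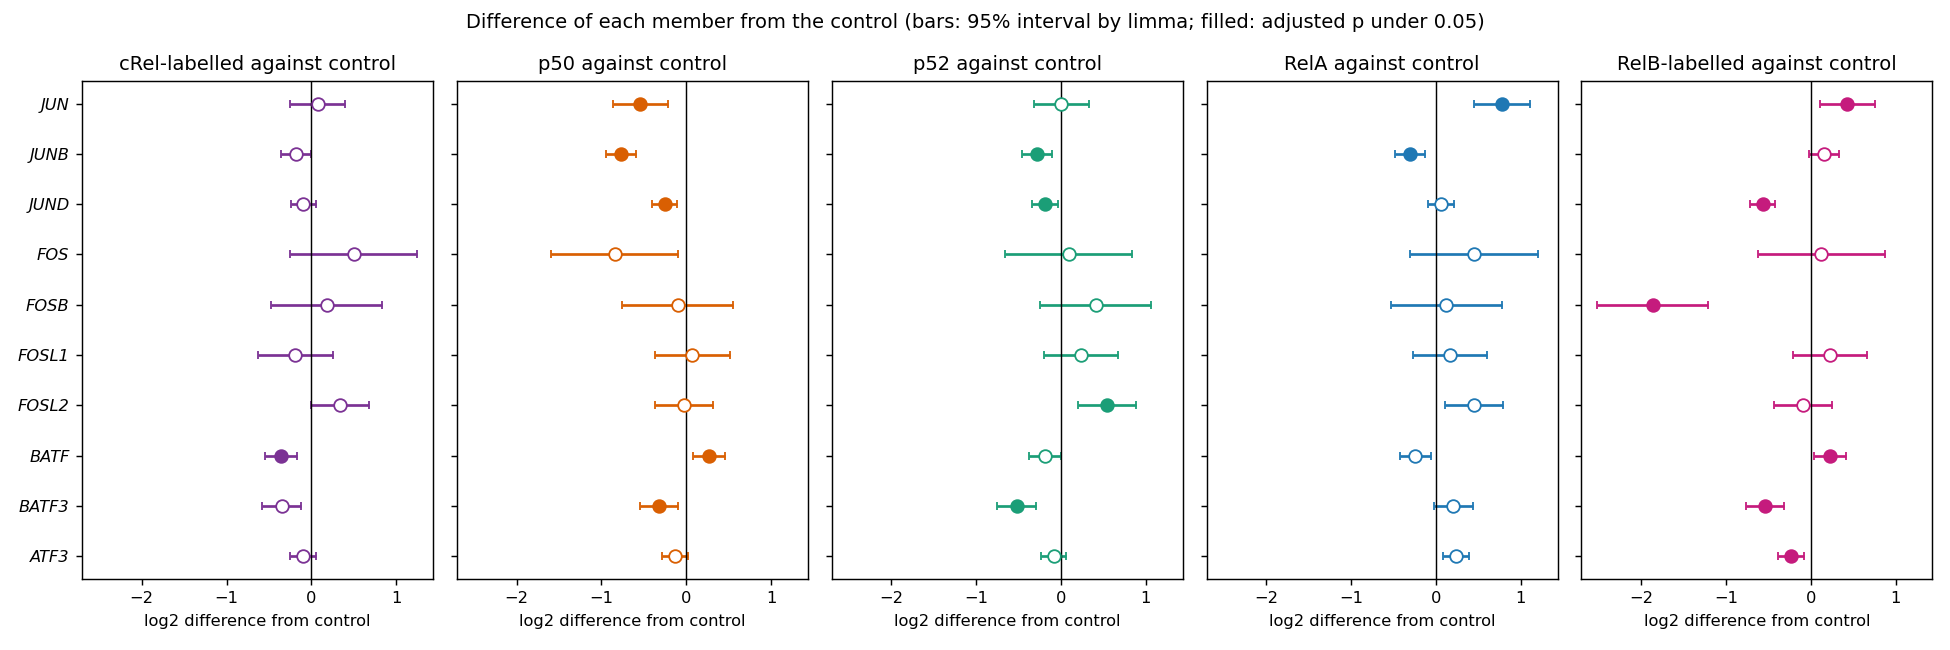
Log2 difference of each AP-1 gene from the control in each knockout, with the 95% interval of the limma fit; filled points passed an adjusted p under 0.05. FOSB in RelB-labelled cells lies farthest from 0, at -1.86, and JUN lies below 0 in p50-knockout cells and above 0 in RelA-knockout cells.

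JUNB, an abundant JUN-group protein in lymphoid cells, fell most in p50-knockout cells. Its 3 control libraries held 4666, 5226 and 5642 normalised reads and the 3 p50-knockout libraries 3056, 3205 and 2828. Every p50-knockout library lay below every control, the mean falling 1.71-fold from 5178 ± 490.1 to 3029.6 ± 190.1, with a log2 difference of -0.77 ± 0.09 (SE), limma adjusted p = 9.2e-07. The p52 knockout held 3937, 4578 and 4208, also below all controls (log2 difference -0.29, limma adjusted p = 0.0081), though after quantile normalization the adjusted p was 0.16. RelA-knockout libraries held 4102, 4722 and 3751 and overlapped the controls. The call (log2 difference -0.31, limma adjusted p = 0.036) was lost on leaving out control 2, control 3, RelA library 1 or RelA library 3, with adjusted p up to 0.22, after quantile normalization (0.072) and when only the 2 groups were fitted (0.075). The RelB-labelled libraries held 5261, 6214 and 5863 and overlapped the controls, with a log2 difference of 0.16 (adjusted p = 0.11) in limma. With a replicate block the adjusted p was 0.047, without control 3 0.035, without RelB-labelled library 1 0.041 and after quantile normalization 0.0036. Other settings did not call it, with an adjusted p of 0.069 in edgeR, 0.082 in DESeq2 and 0.42 in limma without control 1. The cRel-labelled libraries held 4499, 4815 and 4329, overlapping the controls, with a log2 difference of -0.18 (adjusted p = 0.23). Exons of JUNB share 259 of their 1820 bases with HOOK2 on the opposite strand in GENCODE 29. The sources used here do not give the strand setting of the counting. HOOK2 itself stood at 103 ± 13.5 normalised reads in the control and 154 ± 3.47 in RelB-labelled cells, far below JUNB.

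JUN, which encodes c-Jun, the main substrate of the JNK kinases, went in opposite directions after loss of p50 and of RelA. The controls held 278, 216 and 191 normalised reads. In p50-knockout cells JUN stood at 146, 166 and 153, below every control, and fell 1.46-fold with a log2 difference of -0.54 ± 0.16 (SE), limma adjusted p = 0.010. Without control 1 its adjusted p was 0.071. The RelA-knockout libraries, at 408, 380.1 and 376, all lay above every control, and the mean rose 1.72-fold from 228 ± 44.6 to 388 ± 16.97, with a log2 difference of 0.78 ± 0.16 (SE), limma adjusted p = 0.0032. RelB-labelled libraries held 363, 318 and 245 and overlapped the controls. JUN rose there too (log2 difference 0.43, limma adjusted p = 0.019), but the call was lost on leaving out control 2, control 3, RelB-labelled library 1 or library 2 (adjusted p up to 0.12) and after quantile normalization. In cRel-labelled cells (245, 234 and 234) and the p52 knockout (261, 267 and 166) the values overlapped the controls, with log2 differences of 0.07 (adjusted p = 0.82) and 0.00 (adjusted p = 0.99).

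JUND, the JUN-group gene usually described as broadly and steadily expressed, was lowest in RelB-labelled cells. The controls held 4871, 4922 and 5861 normalised reads and the RelB-labelled libraries 3444, 3636 and 3446. No values overlapped, and JUND fell 1.48-fold, from 5218 ± 557 to 3509 ± 110.4, with a log2 difference of -0.57 ± 0.07 (SE), limma adjusted p = 3.7e-07. The third control stood well above the other 2, and the calls for the smaller JUND differences were lost without it. In p50-knockout cells (4587, 4144 and 4378) the log2 difference was -0.25 (adjusted p = 0.0086) with all controls and had an adjusted p of 0.069 without control 3 and 0.12 after quantile normalization. In p52-knockout cells (4975, 4138 and 4601, overlapping the controls) it was -0.19 (adjusted p = 0.031) with all libraries, and the adjusted p was 0.59 after quantile normalization, 0.22 without control 3 and 0.21 without p52 library 2. The RelA knockout (5532, 5277 and 5445) and the cRel-labelled libraries (4960.0, 4727 and 4926) overlapped the controls, at a log2 difference of 0.06 (adjusted p = 0.69) and -0.09 (adjusted p = 0.48).

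Promoter windows of these genes, 250 bases before to 50 after the annotated start (RefSeq, GRCh38.p14), were in the table given for 8 of the 10 genes, ATF3 with 2 starts, and were searched on both strands for 4 motifs. JUN and JUND are shown because each holds a CRE-type match, the 8-base TGACNTCA that JUN and ATF proteins bind. Their messenger RNAs also moved apart in RelB-labelled cells. Capitals mark the match.
JUN (chr1:58783998-58784297, minus strand): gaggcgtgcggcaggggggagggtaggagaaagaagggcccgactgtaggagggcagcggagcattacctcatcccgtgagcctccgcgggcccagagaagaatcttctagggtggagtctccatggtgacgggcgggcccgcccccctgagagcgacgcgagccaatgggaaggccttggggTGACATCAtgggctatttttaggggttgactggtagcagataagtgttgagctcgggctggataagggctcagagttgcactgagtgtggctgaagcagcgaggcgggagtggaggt
JUND (chr19:18281573-18281872, minus strand): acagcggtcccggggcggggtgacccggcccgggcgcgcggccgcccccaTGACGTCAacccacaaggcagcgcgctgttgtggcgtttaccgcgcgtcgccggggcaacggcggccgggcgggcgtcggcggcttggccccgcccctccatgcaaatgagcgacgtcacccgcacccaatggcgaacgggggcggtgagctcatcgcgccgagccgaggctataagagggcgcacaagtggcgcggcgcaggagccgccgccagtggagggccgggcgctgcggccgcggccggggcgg
Counted from the start, with no position 0, the JUN match TGACATCA begins at -67 and the JUND match TGACGTCA at -200. The window of the first ATF3 start held TGACATCA at -123. FOSL2 held the 7-base AP-1 site TGACTCA (searched as TGANTCA), beginning at position 5. The NF-κB motif (kB site) and the CArG box bound by SRF, each searched by its usual degenerate consensus, had no match in the 9 windows, which says only that these letters are not there. Of all 35116 promoter windows, 7.72% held the CRE-type motif, 7.71% the AP-1 site, 5.91% the kB site and 1.29% the CArG box. Among the 3 genes with a CRE-type match, JUN rose in RelB-labelled cells, overlapping the controls, while JUND and ATF3 fell. In p50-knockout cells all 3 had negative log2 differences (JUN -0.54, JUND -0.25, ATF3 -0.14, the last not called). In RelA-knockout cells all 3 were positive (0.78, 0.06 and 0.23, only JUN called). The part of the motif in these differences was not tested.

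Within a library, the ratio of JUNB to JUND reads does not depend on that library's size factor. It was 0.994 ± 0.0586 in the control (range 0.958 to 1.06), 0.935 ± 0.0739 in cRel-labelled cells and 0.937 ± 0.159 in p52-knockout cells, both overlapping the control. The ratio was lower, with no overlap, in p50-knockout cells (0.695 ± 0.0686, range 0.646 to 0.774) and the RelA knockout (0.775 ± 0.107, range 0.689 to 0.895). In RelB-labelled cells it was 1.65 ± 0.103 (range 1.53 to 1.71), above all 15 other libraries. JUNB made up 49.8 ± 1.47% of JUN-group messenger RNA per kb in the control, 41.1 ± 2.297% in p50-knockout cells and 61.6 ± 1.69% in RelB-labelled cells.

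**Figure D3:**
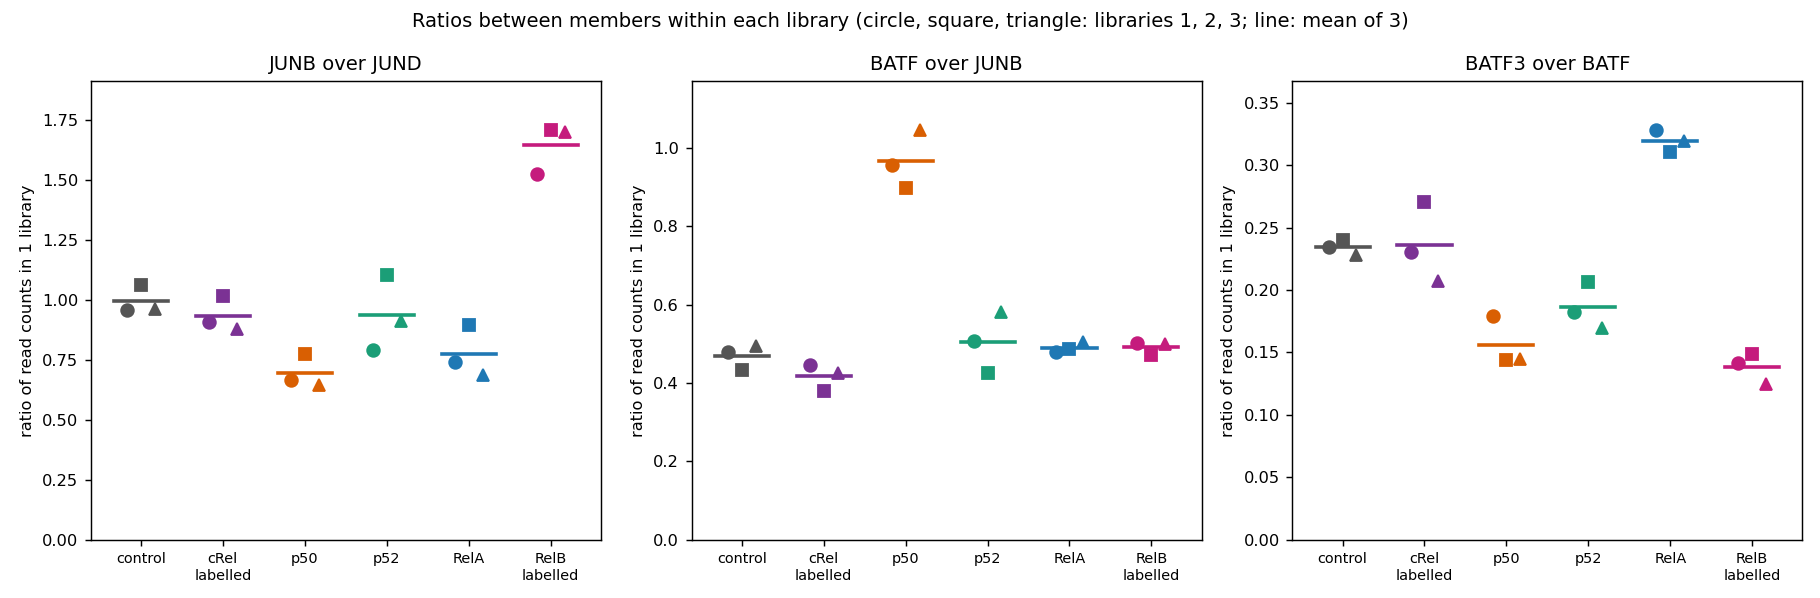
Within-library ratios of reads of 1 AP-1 gene to another (JUNB to JUND, BATF to JUNB, BATF3 to BATF), one point per library, by group. The RelB-labelled libraries are the only ones with a JUNB to JUND ratio above 1.2, and the p50 knockout the only one with BATF to JUNB above 0.6.

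FOSB showed the largest fold difference from the control of the 10 genes, in RelB-labelled cells. FOSB, an immediate-early gene like FOS, held 55.1, 99.6 and 65.3 normalised reads in the controls and 10.2, 31.6 and 20.4 in RelB-labelled cells. All 3 RelB-labelled libraries lay below all 15 others, and FOSB fell 3.63-fold, from 73.3 ± 23.3 to 20.7 ± 10.7, with a log2 difference of -1.86 ± 0.32 (SE), limma adjusted p = 2.0e-05. The fold comes from the fit of log2(value + 1), not from the ratio of the means. The other knockouts held between 55.2 and 131 and none was called, the closest being p52 at a log2 difference of 0.41 (adjusted p = 0.29). FOSL2, which encodes FRA2, rose in p52-knockout cells: 175, 221 and 157 against 125, 132 and 119.6 in the controls, with every p52-knockout library above every control and a log2 difference of 0.54 ± 0.16 (SE), limma adjusted p = 0.0090. That call was lost without p52 library 2 (adjusted p = 0.070) and after quantile normalization (0.10). FOSL2 in RelA-knockout cells was 185, 169 and 162, also above every control, at a log2 difference of 0.45 (adjusted p = 0.12). The limma adjusted p was 0.043 when only those 2 groups were fitted and 0.30 without control 3. In the remaining groups FOSL2 overlapped the controls, at a log2 difference of 0.34 (adjusted p = 0.24) for cRel-labelled, -0.02 (adjusted p = 0.92) for p50 and -0.09 (adjusted p = 0.65) for RelB-labelled.

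FOS, the textbook immediate-early gene, was low everywhere. It held 13.2, 37.5 and 40.7 in the controls and 15.4, 9.48 and 22.1 in p50-knockout cells, where the groups overlapped and limma gave a log2 difference of -0.84 (adjusted p = 0.072). In the same comparison edgeR and DESeq2 on the recovered reads gave adjusted p of 0.043 and 0.030, and without control 1, the lowest control, limma gave 0.0040. Without p50 library 2, the lowest of its group, limma gave 0.31. In the other 4 knockouts FOS was 29.2, 55.8 and 36.4 (cRel-labelled), 27.4, 32.4 and 28.1 (p52), 31.3, 38.01 and 44.9 (RelA) and 46.7, 20.1 and 28.6 (RelB-labelled), and none was called. FOSL1, which encodes FRA1, stood between 18.3 and 38.0 in all 18 libraries, was called in no comparison and had an adjusted p of 0.30 among the 5 knockouts. At this depth its within-group spread was no larger than counting error, and differences within that spread were not detectable.

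BATF, the AP-1 partner of IRF4 that lymphoblastoid cells express at a high level, was higher in 2 knockouts and lower in 1. The controls held 2235, 2268 and 2792 normalised reads. BATF stood at 2922, 2876 and 2956 in p50-knockout cells, above every control, and rose 1.21-fold with a log2 difference of 0.27 ± 0.09 (SE), limma adjusted p = 0.022. The RelB-labelled libraries held 2644, 2932 and 2925 and overlapped the third control, with BATF 1.17-fold higher (log2 difference 0.23, limma adjusted p = 0.030). In cRel-labelled cells BATF stood at 2001, 1832 and 1839, below every control, and fell 1.28-fold, with a log2 difference of -0.36 ± 0.09 (SE), limma adjusted p = 0.017. All 3 calls depended on single libraries. The rise in p50-knockout cells was lost without control 1, control 2 or p50 library 3 (adjusted p up to 0.10), and that in RelB-labelled cells without control 1, control 2, or RelB-labelled library 2 or 3 (up to 0.14). The fall in cRel-labelled cells was lost without control 3 (0.14) or without cRel-labelled library 2 or 3. In the p52 and RelA knockouts BATF was 1998, 1953 and 2441 and 1969, 2299 and 1892, overlapping the controls, at a log2 difference of -0.19 (adjusted p = 0.082) and -0.24 (adjusted p = 0.13). The p52 difference was called, as lower, without control 1 (adjusted p = 0.046) and without p52 library 3 (0.0075). Without control 3 its limma adjusted p was 0.43.

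BATF3, a close relative of BATF best known from dendritic cells, was lowest in the p52 and RelB-labelled libraries. In the controls it held 524, 545 and 637 normalised reads, in p52-knockout cells 365, 403 and 415 and in RelB-labelled cells 373, 436 and 365, the last 2 both below every control. It fell 1.44-fold in p52-knockout cells, with a log2 difference of -0.52 ± 0.11 (SE), limma adjusted p = 0.00039, and 1.45-fold in RelB-labelled cells, with a log2 difference of -0.54 ± 0.11 (SE), limma adjusted p = 0.00017. The p50-knockout libraries held 524, 413 and 428, of which the first just exceeded the lowest control. The call (log2 difference -0.32, limma adjusted p = 0.024) was lost without control 3, p50 library 2 or p50 library 3, with adjusted p up to 0.12. In cRel-labelled cells BATF3 stood at 462, 496 and 381, below every control, at a log2 difference of -0.35 (adjusted p = 0.059) in limma and 0.034 in DESeq2. Without cRel-labelled library 3 the limma adjusted p was 0.31. The RelA knockout had a mean above the control, at 646, 714 and 604 and overlapping the controls, with a log2 difference of 0.21 (adjusted p = 0.31). The ratio of BATF3 to BATF reads within libraries was 0.234 ± 0.00604 in the control, 0.156 ± 0.0203 in p50-knockout cells, 0.186 ± 0.0186 in p52-knockout cells, 0.138 ± 0.0122 in RelB-labelled cells and 0.319 ± 0.00862 in RelA-knockout cells, each of these 4 without overlap with the control. The ratio of BATF to JUNB was 0.469 ± 0.0315 in the control and 0.966 ± 0.0746 in p50-knockout cells, where BATF rose as JUNB fell; in the other 4 groups it overlapped the control.

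ATF3 had the smallest spread between libraries of the 10 genes (5.58% within groups), and its controls lay close together at 729, 715 and 719. The window of its first start is shown for comparison with JUN and JUND, with its CRE-type match in capitals.
ATF3 (chr1:212565157-212565456, plus strand): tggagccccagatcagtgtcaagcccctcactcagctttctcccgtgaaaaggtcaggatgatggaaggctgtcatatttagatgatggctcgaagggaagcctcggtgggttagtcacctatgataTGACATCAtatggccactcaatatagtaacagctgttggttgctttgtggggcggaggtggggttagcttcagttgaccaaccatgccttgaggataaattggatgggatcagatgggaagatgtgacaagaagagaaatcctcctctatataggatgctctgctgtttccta
ATF3 stood at 617, 605 and 613 in RelB-labelled cells, below every control, and fell 1.18-fold from 721 ± 7.23 to 612 ± 5.92, with a log2 difference of -0.24 ± 0.07 (SE), limma adjusted p = 0.0068. The RelA knockout held 907, 790.5 and 849.7, above every control, at a log2 difference of 0.23 (adjusted p = 0.065) in limma, 0.048 in edgeR and 0.035 in DESeq2. Without RelA library 1 the limma adjusted p was 0.26. In p50-knockout cells (656, 637 and 676) and the cRel-labelled libraries (686, 685 and 645) every value lay below every control, at a log2 difference of -0.14 (adjusted p = 0.15) and -0.10 (adjusted p = 0.44), and the p52 knockout (631, 765 and 645) overlapped them, at a log2 difference of -0.09 (adjusted p = 0.33).

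Whether an AP-1 gene's level depended on which subunit was targeted was tested among the 5 knockouts alone, with no control in the contrast. In limma's moderated F-test 9 of the 10 genes were called, beside 78.8% of all tested genes, FOSL1 being the exception. JUNB (adjusted p = 7.4e-08) and JUND (1.1e-06) had the smallest values, and FOS the largest of the 9 (0.013; up to 0.12 in other settings). Of the 100 direct comparisons (10 genes in 10 pairs of knockouts), 47 were called, beside 11% to 67.2% of all genes by pair. As against the control, these counts are not read as a result about the family. The p50 and RelA knockouts differed in 8 of 10 genes, beside 39.2% of all genes, and the RelA and RelB-labelled libraries in 7, beside 67.2%. Both RelB-labelled against cRel-labelled (65.8% of all genes) and RelB-labelled against p52 (45.4%) gave 6, and RelB-labelled against p50 gave 5 (53.1%). The p50 knockout gave 4 against cRel-labelled (31.1%) and 4 against p52 (22.2%), p52 against RelA gave 4 (52.5%), and cRel-labelled against RelA gave 3 (11%). Between the cRel-labelled and p52 libraries 0 were called, beside 45.9% of all genes; limma gave 0 at an unadjusted p under 0.05 as well, and edgeR and DESeq2 gave 0, while quantile normalization called BATF (log2 -0.25, adjusted p = 0.031).

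**Figure D4:**
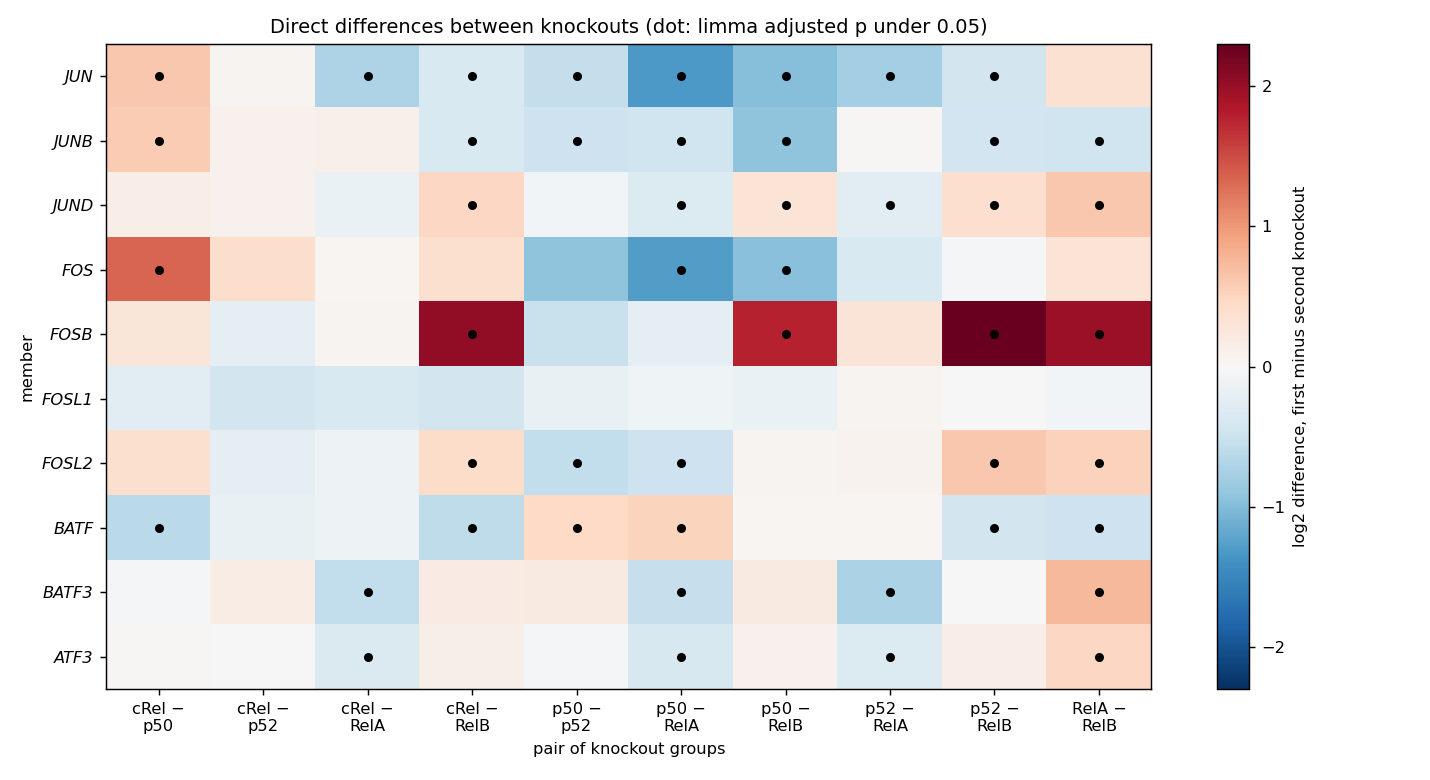
Log2 difference of each AP-1 gene between each pair of knockouts, first named minus second, as a colour scale, with a dot where the limma adjusted p was under 0.05 (cRel and RelB stand for the groups labelled so). The p50 and RelA knockouts differ in 8 genes (39.2% of all tested genes), and the cRel-labelled and p52 libraries in 0 (45.9% of all tested genes).

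Single genes set particular knockouts apart. JUN was 2.497-fold lower in p50-knockout than in RelA-knockout cells, log2 -1.32 (adjusted p = 1.0e-06), and RelA-knockout cells also exceeded the cRel-labelled and p52 libraries, by 0.70 and 0.78. In p50-knockout cells JUN was also below the cRel-labelled, p52 and RelB-labelled libraries, by 0.62, 0.54 and 0.97; the p52 difference lost its call without p50 library 1 or p52 library 1 or 2 (adjusted p up to 0.097). JUNB was lower in p50-knockout cells than in each of the other 4, by log2 0.46 (RelA, adjusted p = 0.00021) to 0.93 (RelB-labelled, 9.6e-09). It was higher in RelB-labelled cells than in each of the other 4 knockouts, although not called against the control. JUND and FOSB were both lower in RelB-labelled cells than in each of the other 4, JUND by 0.32 (p50) to 0.63 (RelA) and FOSB by 1.76 (p50) to 2.27 (p52). BATF was higher in both the p50 and the RelB-labelled libraries than in each of the cRel-labelled, p52 and RelA libraries. The largest difference, p50 over cRel-labelled, was 0.63 (adjusted p = 1.7e-05), and p50 and RelB-labelled libraries differed by 0.04 (adjusted p = 0.71), 95% interval -0.14 to 0.23. BATF3 and ATF3 shared a pattern: each was higher in RelA-knockout cells than in each of the other 4, BATF3 by 0.53 (p50) to 0.74 (RelB-labelled) and ATF3 by 0.32 (p52) to 0.47 (RelB-labelled). Neither was called in any other pair. FOSL2 was higher in p52-knockout than in p50-knockout cells, by 0.56 (adjusted p = 0.016), and than in RelB-labelled cells, by 0.63 (0.0036). The first of these was lost without p50 library 1 or p52 library 2 (adjusted p up to 0.11). RelA-knockout cells also held more FOSL2 than p50-knockout cells (p50 minus RelA -0.48, limma adjusted p = 0.025) and RelB-labelled cells (0.54, 0.0063). The cRel-labelled cells exceeded RelB-labelled cells as well (0.42, 0.027). Each of these calls was lost without certain single libraries (adjusted p up to 0.23). FOSL2 was not called in p52 against RelA (0.09, adjusted p = 0.68) or in cRel-labelled against p52 (-0.20, 0.33). FOS was lower in p50-knockout cells than in the cRel-labelled, RelA and RelB-labelled libraries, by 1.34, 1.29 and 0.97, each lost without p50 library 2 (adjusted p up to 0.16); the last was also lost without p50 library 1 or RelB-labelled library 1 or 3. The JUN difference between cRel-labelled and RelB-labelled libraries, -0.36, lay at the threshold itself and was lost on leaving out any of 12 libraries.

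The order of the most abundant AP-1 messenger RNAs differed between groups. Per kb, BATF (2978 ± 41.2 normalised reads) came first in p50-knockout cells, ahead of JUND (2346 ± 119) and JUNB (1665 ± 104), with no overlap between neighbours. The RelB-labelled libraries had JUNB (3175 ± 265) and BATF (2892 ± 168) at overlapping levels above JUND (1883 ± 59.3), and FOSB (3.73 ± 1.92) took the last place held by FOS elsewhere. In RelA-knockout cells JUND (2908 ± 69.5) stood clear of JUNB (2303 ± 270.0), which overlapped BATF (2095 ± 220.5). BATF and BATF3 together made up 31.1 ± 0.926% of the summed per-kb level of the 10 genes in the control, 42.4 ± 0.705% in p50-knockout cells, 36.2 ± 0.566% in the RelB-labelled and 27.9 ± 0.94% in cRel-labelled cells, these 3 without overlap with the control. In the p52 and RelA knockouts the share was 31.3 ± 2.705% and 29.4 ± 1.42%, overlapping it. These are shares of messenger RNA, with no measure of protein.

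**Figure D5:**
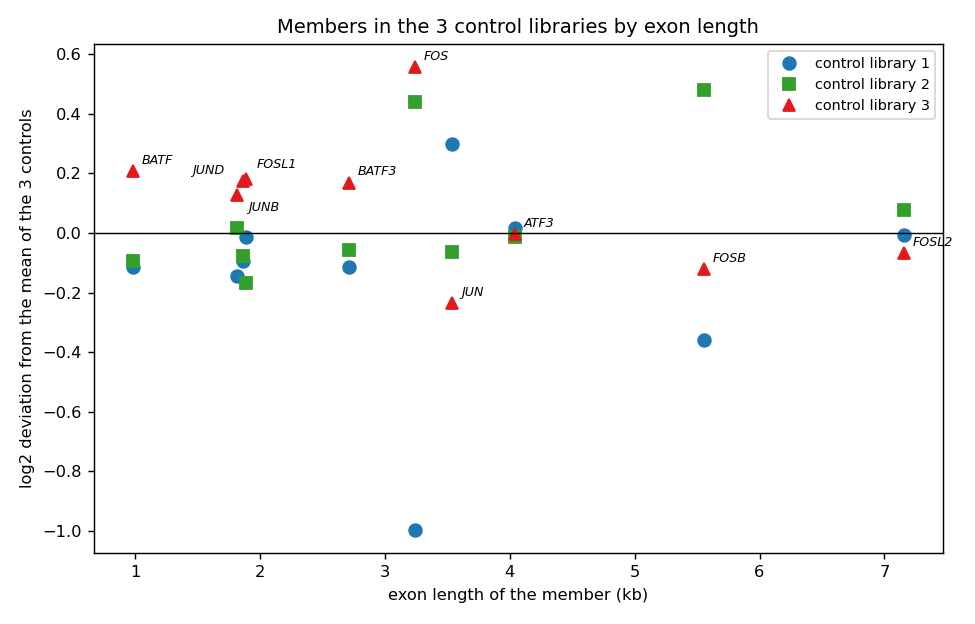
Log2 deviation of each control library from the mean of the 3 controls for each AP-1 gene, against the gene's exon length in kb. The triangles of control library 3 are the highest points for BATF, JUNB, JUND, FOSL1, BATF3 and FOS, the 6 shortest genes, and the lowest for JUN and FOSL2.

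For each of the 9 genes called among the knockouts, the genes whose log2 values ran most like it over the 18 libraries were listed among those with a mean of at least 100; the correlations are descriptions, since the libraries share 6 group means and their composition. JUN was followed most closely by PRKCE, a protein kinase C (0.95, Pearson), VCL, which encodes vinculin (0.91), and EHD1 (0.89). PRKCE stood at 771 normalised reads in p50-knockout cells, 918 in the control and 1249 in RelA-knockout cells, the same order as JUN. It was chosen for running like JUN, so the shared order is no separate result. JUNB ran with LSP1 (0.91), a leukocyte actin-binding protein, LGALS3 (0.88), which encodes galectin-3, and the transcription repressor BHLHE40 (0.86). JUND ran with TPGS2 (0.95) and OAZ2 (0.94), BATF with PABPC1 (0.89), TOP1MT (0.87) and PRPF6 (0.87), and BATF3 with ECHS1 (0.91), GRK6 (0.91) and TNFRSF8 (0.89), the last encoding CD30. For ATF3 they were CASP6 (0.88), SENP2 (0.85) and MYO1F (0.85). FOSB was followed by CCNYL1 (0.90), MFSD9 (0.90) and LPCAT1 (0.89), whose rank correlations with it were lower (0.74, 0.44 and 0.60). For FOSL2 the likest were RAB11FIP2 (0.83), IRF2BPL (0.80) and TFPI2 (0.78), and for FOS, with few reads, SEC23B (0.82), CHMP7 (0.76) and PPP1R21 (0.76).

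Kinases that act on AP-1 and the SRF and ETS factors that switch on FOS formed a list of 36 symbols, which name 34 genes, all 34 tested. Of the 34, 2 rose and 0 fell in the cRel-labelled group (6.09% of all genes called), 7 rose and 4 fell in the p50 group (36.7% of all genes called), 14 rose and 4 fell in the p52 group (50.8% of all genes called), 2 rose and 1 fell in the RelA group (5.55% of all genes called), 12 rose and 6 fell in the RelB-labelled group (67.8% of all genes called). The 5 list medians ran from -0.00 to 0.07, beside -0.02 to 0.00 over all tested genes, and nothing particular to the list is read from these counts. Log2 differences from the control are given in parentheses for each group in which a gene was called by limma. MAP3K5 (ASK1), which activates JNK and p38, rose in the cRel-labelled (0.45), p50 (0.59), p52 (0.43) and RelB-labelled (0.83) groups, with 2339.7 ± 238 in the control and 3518 ± 269 in the p50 group (adjusted p = 9.2e-06). MAPK10, the JNK3 gene, rose in the p50 (1.15), p52 (0.85), RelA (0.69) and RelB-labelled (2.04) groups, with 27.6 ± 4.81 in the control and 61.8 ± 4.66 in the p50 group (adjusted p = 5.9e-05). MAPK11 (p38 beta) rose in the p50 (0.37), p52 (0.97) and RelB-labelled (0.43) groups, with 433 ± 34.8 in the control and 848 ± 47.4 in the p52 group (adjusted p = 1.7e-07). The p38 activator MAP2K6 fell in the p50 (-0.21), p52 (-0.46) and RelB-labelled (-1.54) groups, with 682 ± 22.6 in the control and 235 ± 20.9 in the RelB-labelled group (adjusted p = 4.0e-13). SRF, the factor that binds the FOS serum response element, fell in the p50 (-0.36), p52 (-0.40) and RelB-labelled (-1.18) groups, with 5607 ± 256 in the control and 2475 ± 92.8 in the RelB-labelled group (adjusted p = 7.6e-12). MAP3K14 (NIK), the kinase of the non-canonical NF-κB pathway, rose in the p50 (0.28), p52 (0.29) and RelA (0.41) groups, with 1117 ± 92.8 in the control and 1479 ± 90.6 in the RelA group (adjusted p = 0.0048). MAP2K3 fell in the RelA (-0.36) and RelB-labelled (-0.23) groups, and RPS6KA4 (MSK2) rose in the cRel-labelled (0.33) group and fell in the RelB-labelled (-0.68) group.

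The list of 33 other leucine-zipper genes that can pair with AP-1 proteins or share their sites had 27 tested. Among them 3 rose and 3 fell in the cRel-labelled group (6.09% of all genes called), 5 rose and 5 fell in the p50 group (36.7% of all genes called), 6 rose and 5 fell in the p52 group (50.8% of all genes called), 1 rose and 0 fell in the RelA group (5.55% of all genes called), 11 rose and 8 fell in the RelB-labelled group (67.8% of all genes called). The list medians ran from -0.02 to 0.07. CREM, a CRE-binding modulator of cyclic AMP responses, fell in the cRel-labelled (-0.40), p52 (-0.57) and RelB-labelled (-0.64) groups, with 1200.2 ± 64.5 in the control and 768 ± 21.5 in the RelB-labelled group (adjusted p = 9.2e-08). MAFF, a small MAF protein, rose in the p52 group (log2 1.01) and in the RelB-labelled group, with 79.2 ± 9.05 in the control and 227 ± 38.2 in the RelB-labelled group (adjusted p = 1.4e-08). BACH1, a repressor that pairs with small MAF proteins, rose in the cRel-labelled (0.49), p50 (0.51), p52 (0.78), RelA (0.69) and RelB-labelled (1.05) groups, with 614 ± 107 in the control and 1259 ± 73.4 in the RelB-labelled group (adjusted p = 1.7e-07). NFE2L3 rose in the cRel-labelled (0.30), p50 (0.34) and p52 (0.40) groups, and ATF5 fell in the p50 (-0.27) group. CEBPD fell in the cRel-labelled (-0.96) group and rose in the p52 (0.58) group, with 108 ± 8.64 in the control and 55.8 ± 14.2 in the cRel-labelled group (adjusted p = 0.0012).

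Among 36 textbook AP-1 target genes, 31 were in the table and 24 were tested; many are also known targets of NF-κB, which the list does not separate. Of the 24, 4 rose and 3 fell in the cRel-labelled group (6.09% of all genes called), 4 rose and 8 fell in the p50 group (36.7% of all genes called), 13 rose and 3 fell in the p52 group (50.8% of all genes called), 2 rose and 2 fell in the RelA group (5.55% of all genes called), 10 rose and 10 fell in the RelB-labelled group (67.8% of all genes called). The list median in p52-knockout cells was 0.32, beside 0.00 over all tested genes, and in the other 4 groups it ran from -0.09 to 0.12; nothing particular to the list follows from it. VIM, which encodes vimentin, fell in the p50 (-1.13) and RelB-labelled (-1.36) groups and rose in the cRel-labelled (0.37), p52 (0.38) and RelA (0.28) groups, with 3463 ± 319 in the control and 1348 ± 101 in the RelB-labelled group (adjusted p = 5.5e-13). CD44, a hyaluronan receptor, fell in the p50 (-0.99) and RelB-labelled (-0.44) groups, with 1447 ± 56.3 in the control and 728 ± 71.02 in the p50 group (adjusted p = 3.7e-09). CCND1, which encodes cyclin D1, rose in the cRel-labelled (0.44), p50 (0.51), p52 (1.32) and RelB-labelled (0.36) groups, with 473 ± 50.3 in the control and 1185 ± 108 in the p52 group (adjusted p = 3.4e-10). TNF fell in the cRel-labelled (-0.37), p50 (-0.44), p52 (-0.95), RelA (-0.38) and RelB-labelled (-2.33) groups, with 380.0 ± 44.98 in the control and 74.6 ± 5.25 in the RelB-labelled group (adjusted p = 6.7e-14). HMOX1, the heme oxygenase gene, rose in the p50 (0.58) group and fell in the RelA (-0.58) and RelB-labelled (-0.35) groups, and PLAU, which encodes urokinase, rose in the RelA (0.49) and RelB-labelled (1.53) groups and fell in the cRel-labelled (-0.48) and p50 (-0.37) groups. LMNA, the lamin A gene, fell in the cRel-labelled (-0.76) group and rose in the p52 (0.25) group, with 3746 ± 321 in the control and 2210.2 ± 262 in the cRel-labelled group (adjusted p = 3.9e-05). MMP9, at low counts, rose in the cRel-labelled (1.39), p52 (1.29) and RelB-labelled (0.60) groups, with 14.95 ± 1.76 in the control and 40.7 ± 4.19 in the cRel-labelled group (adjusted p = 0.00041).

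Of 15 partners and dependent genes of BATF, 12 were in the table and 8 were tested. Of these 8, 3 rose and 2 fell in the cRel-labelled group (6.09% of all genes called), 2 rose and 4 fell in the p50 group (36.7% of all genes called), 3 rose and 3 fell in the p52 group (50.8% of all genes called), 1 rose and 0 fell in the RelA group (5.55% of all genes called), 4 rose and 2 fell in the RelB-labelled group (67.8% of all genes called). The list medians ran from -0.13 to 0.13. PRDM1, the Blimp-1 gene, fell in the cRel-labelled (-0.37), p50 (-1.04), p52 (-1.26) and RelB-labelled (-1.56) groups and rose in the RelA (0.38) group, with 903 ± 74.3 in the control and 304 ± 17.7 in the RelB-labelled group (adjusted p = 8.5e-12). CD274, which encodes PD-L1, rose in the cRel-labelled (0.51), p50 (0.81), p52 (0.88) and RelB-labelled (1.89) groups, with 602 ± 58.8 in the control and 2237 ± 109 in the RelB-labelled group (adjusted p = 2.7e-14). BCL6, the germinal-centre repressor, rose in the cRel-labelled (0.90) group and fell in the p50 (-0.42), p52 (-0.36) and RelB-labelled (-2.62) groups, with 237 ± 38.3 in the control and 37.6 ± 4.33 in the RelB-labelled group (adjusted p = 1.6e-12). IRF4, the DNA-binding partner of BATF, was abundant in all 18 libraries, with a mean of 22290.0 normalised reads (range 19420.0 to 26440.0).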

How the data were processed

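Per the submitters' processing notes, the authors used STAR 2.5.2b, featureCounts 1.5.1, DESeq2 1.14.1 and GRCh37. Neither annotation release nor strand setting is given there. The deposited values are a signal in normalised counts, reads divided by a size factor. All 308790 values were whole multiples of 1 read within 0.0001, so reads were recovered (15179664 to 37473129 a library, 0.646 to 1.46 units a read).

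Differences were tested by limma 3.58.1 with a trend of variance on intensity, on log2(value + 1), in 1 fit of all 18 libraries with a mean per group, two-sided, Benjamini-Hochberg adjusted over 12381 genes with a mean of at least 10, called at an adjusted p under 0.05. The script was tested on simulated data. Every group had 3 libraries. Named genes were the 10 members, the 5 subunit genes, up to 2 called genes with the smallest p per list and knockout, and the 3 most correlated genes per member. Some genes that this rule names are not reported here. The members and lists were chosen with earlier results of these data known. Exon lengths came from GENCODE 29, matched by gene identifier, and promoter sequences from RefSeq (GRCh38.p14). Alternatives were edgeR 4.0.16 and DESeq2 1.42.0 on the recovered reads, quantile and TMM scaling, pseudocounts 0.5 and 5, no filter or a mean of at least 100, only the groups compared, a replicate block, each library left out in turn, and control 3, p52 library 3 and RelA library 2 left out together, since transcript length ran against their values.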

Additional observations from a re-analysis of the deposited data

How the results depend on the processing

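No member difference from the control that was called changed sign in any setting. Of 1435 recomputed differences from the control, 1376 stayed on the same side of the threshold, 37 lost a call and 22 gained one. Leaving out each library in turn gave 0 to 2 called members for cRel-labelled, 3 to 5 for p50 and 2 to 5 for p52. It gave 1 to 3 for RelA and 4 to 6 for RelB-labelled. With all libraries the 5 counts were 1, 5, 4, 2 and 6. Over all tested genes the same refits called 448 to 926 (cRel-labelled), 3377 to 4918 (p50) and 5443 to 6336 (p52). They called 413 to 849 (RelA) and 7873 to 8552 (RelB-labelled). With all libraries the all-gene counts were 754, 4539, 6295, 687 and 8391 of 12381. Nothing particular to the AP-1 genes is read from the changes in these counts. Quantile normalization gave 1 for p52 and 1 for RelA, where it called 5997 and 593 of all tested genes. DESeq2 gave 2 for cRel-labelled, where it called 928 of all tested genes. Leaving out control 3, p52 library 3 and RelA library 2 together gave 3 for p50, where 4340 of all tested genes were called. The cause was not tested. A replicate block gave 1, 5, 4, 2 and 7 called members (cRel-labelled, p50, p52, RelA, RelB-labelled), 9 among the knockouts and 48 in the 100 direct comparisons, the call added against the control being JUNB in RelB-labelled cells. With the block, 940, 4870, 6557, 834 and 8557 of all tested genes were called against the control, and 10004 among the knockouts. In 0 of the 5 knockouts did all 3 same-numbered libraries correlate above 0.1 with the control, so the numbers were not taken to pair those samples. Among the pairs of knockouts 1, cRel-labelled with p50, had all 3 above it (0.165 to 0.2), and the block changed no member call in that pair. Of the libraries, 16 of 18 correlated best, among libraries of other groups, with one of their own number. The highest same-number value with the control was 0.397, for p52 library 3. The numbers thus carried some variation shared between groups, and its source was not tested. A minimum mean of 100 leaves FOS, FOSB and FOSL1 untested. With 9 to 63 reads of FOS and 20 to 51 of FOSL1 a library, depth limits what can be seen for these 2 genes.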

Other observations

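Over the 18 libraries, BATF3 and ATF3 were the pair of AP-1 genes whose log2 values ran most alike (Pearson 0.772), followed by JUND with BATF3 (0.718) and FOSB with JUND (0.711), and FOSL2 and BATF ran most opposite (-0.677). These are descriptions over libraries that share 6 groups. JUNB and JUND, both known dimer partners of BATF, had values of -0.0266 and -0.508 with it.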
